A study of Caenorhabditis elegans with 12 samples.

Results

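The genes described here are 9 genes of *Caenorhabditis elegans* that act in exogenous RNAi and in the transport of double-stranded RNA between cells. They are *rde-11*, *rde-10*, *rde-4*, *rde-8*, *dcr-1*, *sid-1*, *sid-2*, *sid-3* and *sid-5*, chosen by name from 19691 protein-coding genes with a row for antisense reads, in a table of 63014 named features. Their sRNAs were measured in whole young adult worms grown at 20 °C. The 3×FG strain (SS142 in the labels) carried glh-1F>A, glh-4F>A and glh-2 delFG, edits of the phenylalanine-glycine repeats of 3 germ granule helicases, together with wago-4(gg620[3xflag::gfp::wago-4]). WT (YY1325) carried the tagged *wago-4* alone, so both strains expressed a tagged WAGO-4 and neither is an untagged worm. Each strain gave 3 WAGO-4 IP and 3 input libraries, 12 in all, and each IP shares its lysate with the input of the same number. The edits change codons or remove part of *glh-2*, so sRNA counts of the *glh* genes do not check the labels.

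In exogenous RNAi, Dicer cuts double-stranded RNA into primary siRNAs with the help of a double-stranded RNA-binding partner. An Argonaute with a primary siRNA then marks the target mRNA, and RNA-dependent RNA polymerases copy it into abundant secondary sRNAs, the 22G-RNAs, which are antisense to the mRNA and start with guanosine. 22G-RNAs are loaded into worm-specific Argonautes (WAGOs), and WAGO-4 is a germline member of that family needed for inherited silencing. Genes of the RNAi pathway are themselves templates for 22G-RNAs, so the antisense reads measured here are the sRNAs made against each gene and not its mRNA. In whole worms, fewer cells of a type and less RNA per cell cannot be told apart.

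Input libraries held 2208475 to 78826261 reads, and WT inputs 1 and 2 were the shallowest (2208475 and 5200665 reads). WT input 3 (20006273 reads) was deeper than 3×FG input 3 (11890545 reads). WT inputs 1 and 2 were sequenced in batch A, and the other 10 libraries, including the IPs of the same lysates, in batch B. rRNA made up 15.9% to 20.3% of named reads in the 3×FG inputs and 21.2% in WT input 3, against 3.39% and 5.26% in the batch A inputs. The miR-35 family, a set of oocyte and embryo miRNAs, summed to 11863 to 13626 reads per 1000000 (RPM) in the 3×FG inputs, with 0 of 16 mature forms at 0 in each. It summed to 17047, 22645 and 38722 RPM in WT inputs 1 to 3, with 2, 1 and 0 forms at 0. Antisense reads of 31 sperm protein (*msp*) genes summed to 75.9 to 101 RPM in 3×FG and to 45.0 to 75.3 RPM in WT. The muscle miRNA miR-1 was at 47950 to 64593 RPM in 3×FG and 39873 to 101169 RPM in WT, and the intestinal miR-60 at 103 to 180 RPM in 3×FG and 201 to 965 RPM in WT, with the highest values of both in the batch A inputs. The neuronal miR-124 was at 0.441 to 0.846 RPM in 3×FG and at 0.526 to 4.82 RPM in WT, and let-7 with lin-4 at 3471 to 4288 RPM in 3×FG and 2929 to 3010 RPM in WT. The part of tissue makeup, depth and batch in the results that follow was not tested beyond the values given beside them.

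Antisense levels of the 9 genes spanned from under 1 RPM for *sid-5* to 762 RPM for *sid-1* in 3×FG, counted over reads on named features. Per kb of merged exons, *sid-1* was the highest in 3×FG, with 285 ± 2.64 RPM per kb, followed by *rde-11* with 247 ± 12.9 and *rde-4* with 56.0 ± 6.09 (SD, n = 3 each). These 3 genes lay above 99.2%, 99.1% and 96.4% of the 19679 antisense features with a gene model. *rde-8* (6.06 ± 1.42) and *dcr-1* (5.97 ± 0.863) overlapped each other, and *rde-10* (2.19 ± 0.357) and *sid-3* (1.19 ± 0.218) came below them without overlap. *sid-2* (0.866 ± 0.0643) and *sid-5* (0.716 ± 0.620) were last and overlapped. In WT, *rde-11* was the highest, with 340 ± 29.3 RPM per kb, above *sid-1* with 198 ± 10.8 and *rde-4* with 39.1 ± 3.03 (SD, n = 3 each). The order of *rde-11* and *sid-1* thus differed between the genotypes, with no overlap of the libraries of the 2 genes in either. Below them in WT came *rde-8* (7.27 ± 0.842), *dcr-1* (4.05 ± 0.245) and *rde-10* (2.44 ± 0.158), each without overlap with the next, and then *sid-2* (1.32 ± 0.543), *sid-3* (0.556 ± 0.245) and *sid-5* (0.332 ± 0.411), which overlapped.

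**Figure D1:**
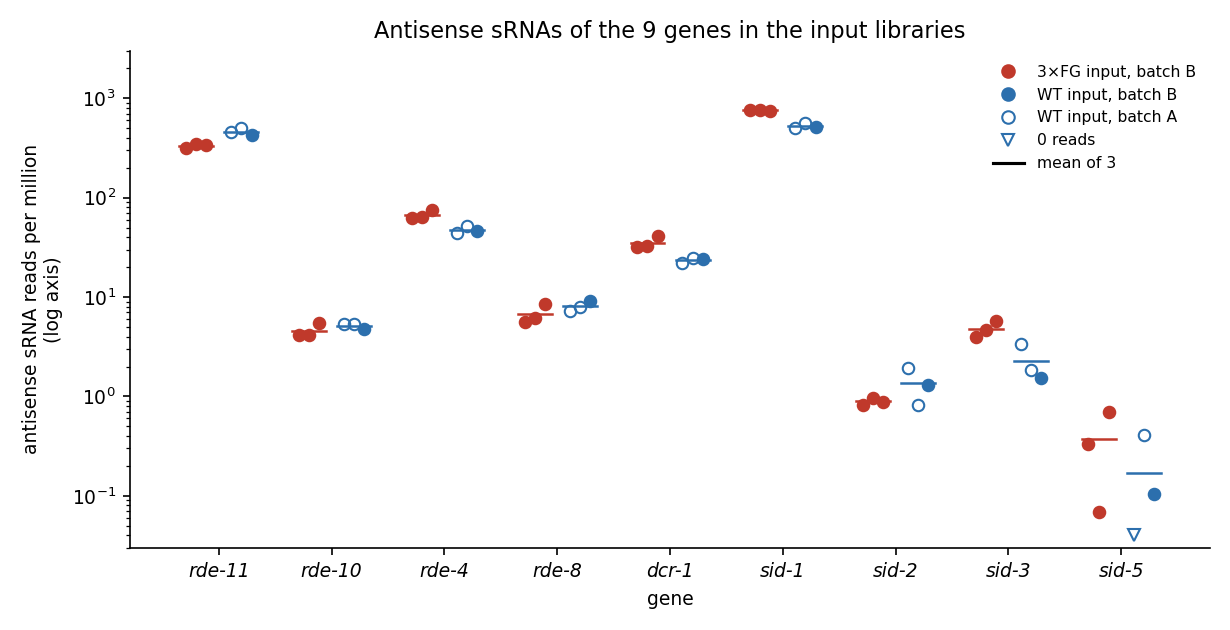
Antisense sRNA level of each gene in the 6 input libraries, in RPM on a log axis. Points are libraries (red 3×FG, blue WT, open circles WT inputs of batch A, open triangles 0 reads) and lines are means of 3. *sid-1*, *rde-4*, *dcr-1* and *sid-3* lay higher in every 3×FG library than in any WT library, and *rde-11* lay lower. Of all antisense features tested, 34.6% were higher and 17.2% lower in 3×FG in this way.

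The first question was whether antisense sRNAs of these genes differed between 3×FG and WT worms before any WAGO-4 purification. Of the 9 genes, 8 passed the filter on low counts and were tested with edgeR over 22682 features, and 3 of the 8 had an adjusted p under 0.05, all higher in 3×FG. These were *sid-1*, *rde-4* and *dcr-1*. Over all features 12.8% passed (7.72% higher and 5.11% lower), and over antisense features of protein-coding genes 20.8% passed (13.6% higher). The features tested had a median log2 fold change of 0.42, and the 3 genes stood between the 60.1st and the 61.8th percentile of change, so their rise relative to that median was small. Of 15 alternative settings, 12 lost the call of *sid-1*, 14 that of *rde-4* and 13 that of *dcr-1*, and which of the genes passed depended on the scaling. The share of calls that were higher also depended on it, with 1751 higher and 1160 lower here and 1178 higher and 1554 lower with DESeq2 size factors. Batch B alone and batch as a term both rest on 1 WT input, WT input 3. Without WT input 3, all WT inputs were of batch A and all 3×FG inputs of batch B. Genotype and batch cannot be told apart in that setting. A stricter rule, an adjusted p below 0.01 with a log2 fold change beyond -1 or 1, was passed by 0 of the 8 genes and by 3.22% of features.

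*sid-1* encodes the transmembrane channel through which double-stranded RNA enters cells. Its gene lies on chromosome V (5119970-5126916, + strand, WBcel235). The 3×FG inputs had 760, 762 and 749 RPM and the WT inputs 502, 558 and 518 RPM. Every 3×FG library was above every WT library, as in 34.6% of antisense features, and the 3×FG libraries lay close together. The change was 0.62 on the log2 scale (SE 0.14, edgeR adjusted p = 0.0373), above 61.2% of all features. Within batch B, where WT has 1 input, it was 0.52. Without 3×FG inputs 1, 2 or 3 or WT inputs 1 or 2 the edgeR adjusted p was 0.0691 to 0.177.

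*rde-4* encodes the double-stranded RNA-binding partner of Dicer and lies on chromosome III (10217302-10218646, - strand). Its antisense reads came to 62.1, 64.4 and 75.8 RPM in 3×FG and 44.4, 51.2 and 45.6 RPM in WT. The genotypes did not overlap, as in 34.6% of antisense features with 3×FG higher, and the log2 fold change was 0.60 (SE 0.13, edgeR adjusted p = 0.0332). Within batch B, where WT has 1 input, it was 0.52. Among the 15 alternatives, only leaving out WT input 3 kept the call (0.61, edgeR adjusted p = 0.0151). In that setting genotype and batch cannot be told apart.

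*dcr-1* encodes Dicer, the only Dicer of the worm, and lies on chromosome III (8071967-8080281, - strand). It had 31.5, 32.9 and 40.9 RPM in 3×FG and 22.2, 24.9 and 24.4 RPM in WT. The genotypes did not overlap, as in 34.6% of antisense features with 3×FG higher, and 3×FG input 3 was the highest. *dcr-1* changed by 0.63 on the log2 scale (SE 0.15, edgeR adjusted p = 0.0414). Within batch B, where WT has 1 input, it was 0.48. The call held when only antisense features were fitted (0.41). It also held without WT input 3 (0.69), where genotype and batch cannot be told apart, but in none of the other 13 alternatives.

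*rde-11* encodes a RING-type zinc finger protein that works with RDE-10 in the amplification of secondary siRNAs. It lies on chromosome IV (13105200-13106927, + strand). The 3×FG inputs had 314, 346 and 341 RPM and the WT inputs 453, 500 and 421 RPM. Every 3×FG library was below every WT library, the reverse of *sid-1*. Non-overlap in that direction was found in 17.2% of antisense features. Its log2 fold change was -0.36 (SE 0.13, edgeR adjusted p = 0.119), below the median of all features and at the 21.4th percentile. The difference did not pass after TMM scaling over all features. With DESeq2 size factors it was -0.55 (edgeR adjusted p = 0.0287), in the fit of antisense features alone -0.57 (edgeR adjusted p = 0.0101) and with the DESeq2 test -0.55 (adjusted p = 0.00222), and under these 3 settings *rde-11* passed as lower in 3×FG.

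*sid-3* encodes a tyrosine kinase needed for efficient import of double-stranded RNA and lies on chromosome X (17186380-17193292, + strand). It had 3.98, 4.71 and 5.73 RPM in 3×FG (298, 206 and 65 reads) and 3.38, 1.84 and 1.53 RPM in WT (7, 9 and 29 reads). The genotypes did not overlap, as in 34.6% of antisense features with 3×FG higher, though the highest WT value rests on 7 reads. Its log2 fold change of 1.28 (SE 0.37) was the largest of the 8 genes and did not pass (edgeR adjusted p = 0.0731). The change was 1.60 within batch B and 1.64 with batch as a term. In both, WT rests on WT input 3 with its 29 reads, so only the size is given here. Among the other alternatives, *sid-3* passed in the fit of antisense features (1.19, edgeR adjusted p = 0.00741) and with the DESeq2 test (1.19, adjusted p = 0.0275). It also passed without WT input 1 (1.56) and without WT input 3 (1.12), where genotype and batch cannot be told apart.

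*rde-8* encodes an endoribonuclease that cuts targeted mRNAs, and *rde-10* encodes the partner of RDE-11. *rde-8* lies on chromosome IV (7101379-7103261, - strand) and *rde-10* on chromosome I (3547071-3552005, + strand). *rde-8* had 5.57, 6.12 and 8.55 RPM in 3×FG and 7.24, 7.96 and 9.10 RPM in WT. The genotypes overlapped, with a log2 fold change of -0.21 (SE 0.26, edgeR adjusted p = 0.650). *rde-10* had 4.16, 4.18 and 5.47 RPM in 3×FG and 5.31, 5.31 and 4.73 RPM in WT. It overlapped too, with a log2 fold change of -0.07 (SE 0.26, edgeR adjusted p = 0.876). WT input 1 held 15 reads of *rde-8* and 11 of *rde-10*, so small differences were not detectable at this depth. *rde-10* shares 57 exon bases with Y47G6A.21 on the opposite strand. Antisense reads of Y47G6A.21 were at 18.3, 19.1 and 19.1 RPM in 3×FG and 135, 158 and 106 RPM in WT, a log2 fold change of -2.72 (SE 0.17, edgeR adjusted p = 0.000771). *rde-10* itself differed by less than the spread between libraries.

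*sid-2* and *sid-5* carried the fewest antisense sRNAs. *sid-2* encodes an intestinal membrane protein for uptake of double-stranded RNA from the gut and lies on chromosome III (13679445-13682450, + strand). It had 0.828, 0.960 and 0.882 RPM in 3×FG and 1.93, 0.816 and 1.31 RPM in WT, where inputs 1 and 2 held 4 reads each. The genotypes overlapped, with a log2 fold change of -0.43 (SE 0.39, edgeR adjusted p = 0.537). *sid-2* lies inside *dyf-2*, a gene of intraflagellar transport on the opposite strand, with which it shares 27 exon bases. Antisense reads of *dyf-2* were at 71.2, 78.0 and 119 RPM in 3×FG and at 3.86, 2.25 and 3.58 RPM in WT (log2 fold change 4.85, SE 0.27, edgeR adjusted p = 0.000518). Antisense sRNAs of the host gene thus rose in 3×FG, while those of *sid-2* were below 2 RPM in every library. *sid-5* encodes an endosome-associated protein that helps double-stranded RNA spread between cells and lies on chromosome X (6904721-6905849, + strand). It had 25, 3 and 8 reads in the 3×FG inputs and 0, 2 and 2 reads in the WT inputs, which was too few to be tested. A count of 0 in WT input 1 allows up to 1.45 RPM, above every value of *sid-5* in 3×FG.

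**Figure D2:**
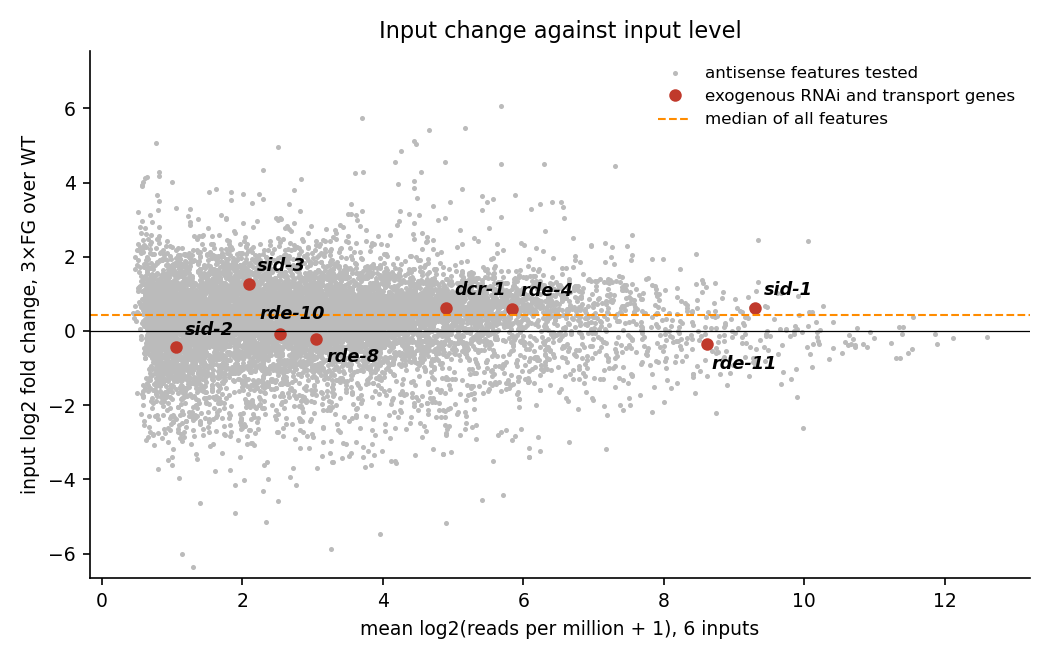
Input log2 fold change (3×FG over WT) against the mean log2(RPM + 1) of the 6 inputs for all antisense features tested (grey) and the 8 tested genes (red). The dashed line is the median of all features tested, 0.42, and the 8 genes lie within the cloud of all features at every level.

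Sense reads of the 9 genes were few. The highest were those of *dcr-1*, at 14.4, 9.12 and 10.9 RPM in 3×FG and 1.45, 0.612 and 15.4 RPM in WT. The low WT values were those of batch A, and WT input 3 was above every 3×FG library. For the other genes sense reads were at 4.73 RPM or less in every library, and *sid-2* had no row for sense reads. Of the 7 sense features tested, 0 passed with edgeR, and 0 had an unadjusted p under 0.05. The sense reads of *rde-4*, *rde-8* and *sid-3* were likewise at 0 to 0.816 RPM in the batch A inputs and at 2.10 to 4.73 RPM in WT input 3.

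The second question was which of these genes were WAGO-4 targets. To be listed in a deposited target table, a feature needed 5 RPM of 22G-RNAs or more in every one of the 3 IPs of its genotype, and 2 times the level of the paired input or more. The 3×FG table holds 4185 features, of which 3 are of these genes (*rde-10*, *rde-8* and *dcr-1*). The WT table holds 4850 features, of which 5 are of these genes, the same 3 and in addition *rde-4* and *sid-1*. Of the WT table, 770 features (15.9%) are missing from the 3×FG table, and 2.51% of the 3×FG table is missing from the WT table. *rde-11*, *sid-2*, *sid-3* and *sid-5* are in neither table, although *rde-11* was among the most abundant in the inputs of both genotypes. In the inputs, 22G-RNAs made up 88.1% to 98.0% of the antisense reads of the 5 listed genes, so most of their antisense reads were of this class.

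Among the 3 genes in both tables, *rde-8* had the largest change. Its IP level was 20.7, 25.7 and 24.0 RPM in 3×FG and 102, 102 and 96.0 RPM in WT. The genotypes were far apart, with little spread within each. On the log2(RPM + 1) scale the change was -2.05 (SE 0.11, limma adjusted p = 1.4e-06), at the 3.85th percentile of the 4080 features in both tables. These features passed the target rule in both genotypes, so the 770 WT targets missing from the 3×FG table are not in this ranking. The input of *rde-8* did not differ beyond the spread, as given above. The IP/input ratio was 4.07, 4.81 and 3.23 in 3×FG and 16.1, 14.3 and 11.8 in WT. In the ranking by ratio *rde-8* stood at the 22.2nd percentile of the 3×FG table and at the 89.0th percentile of the WT table. The change of IP over input was -1.80 (SE 0.27, limma adjusted p = 8.1e-06), against a median of -0.67 over all features. All 11 alternatives for the IP and all 12 for IP over input kept this direction and call, with changes of -2.12 to -1.74 and of -1.92 to -0.98. The smallest change of each range was the one with TMM scaling (limma adjusted p = 3.7e-06 and 0.00101). Within batch B, where WT has 1 input, the change of IP over input was -1.64 (limma adjusted p = 1.7e-05).

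*dcr-1* and *rde-10* changed less. *dcr-1* had 131, 129 and 129 RPM in the 3×FG IPs and 163, 168 and 149 RPM in the WT IPs. The genotypes did not overlap, as in 51.7% of features with 3×FG lower, and the log2 fold change was -0.30 (SE 0.085, limma adjusted p = 0.0137), the same as the median of all features (-0.30). With TMM scaling it was 0.02 (limma adjusted p = 0.820), so the direction for *dcr-1* in the IP depends on the scaling, and the call was also lost without 3×FG IP 2, WT IP 1 or WT IP 2 (limma adjusted p = 0.0501, 0.0508 and 0.0705). The IP/input ratio of *dcr-1* was 4.80, 4.63 and 3.74 in 3×FG and 8.59, 7.95 and 7.18 in WT. The inputs of these ratios were 27.2, 27.9 and 34.6 RPM in 3×FG and 19.0, 21.2 and 20.7 RPM in WT. The change of IP over input was -0.83 (SE 0.24, limma adjusted p = 0.00611), at the 37.5th percentile, and holds this input difference as well as that of the IP. It was -0.80 within batch B (limma adjusted p = 0.0469) and -0.08 with TMM scaling (limma adjusted p = 0.678).

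*rde-10* had 17.2, 22.4 and 20.2 RPM in the 3×FG IPs and 28.0, 28.8 and 24.9 RPM in the WT IPs. The genotypes did not overlap, and the log2 fold change was -0.44 (SE 0.13, limma adjusted p = 0.0166), at the 41.8th percentile, and it did not pass with TMM scaling (-0.13, limma adjusted p = 0.294), without WT IP 1 (-0.42, limma adjusted p = 0.0531) or without WT IP 2 (-0.40, limma adjusted p = 0.0692). Its IP/input ratio was 4.92, 6.03 and 4.27 in 3×FG and 6.17, 6.24 and 6.06 in WT. No pair of 3×FG reached the lowest WT ratio, as in 57.3% of features, but the change of IP over input of -0.31 did not pass (SE 0.27, limma adjusted p = 0.333), and with TMM scaling it was 0.44 (limma adjusted p = 0.129), so its direction depends on the scaling.

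In the IPs, 3 of 3 genes were thus called, all lower in 3×FG, where 63.1% of the 4080 features were called and 49.2% were called lower (566 higher and 2007 lower, and 1319 higher and 1371 lower with TMM scaling). In IP over input, 2 of 3 genes were called lower, where 51.3% of features were called and 50.7% were called lower (22 higher and 2070 lower, and 541 higher and 346 lower with TMM scaling). With 49.2% and 50.7% of all features lower, the counts of called genes say little about these genes. Under the stricter rule *rde-8* alone passed, in the IP, where 20.3% of features did, and in IP over input, where 24.3% did. With TMM scaling its change of IP over input was -0.98, short of the log2 fold change in that rule.

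**Figure D3:**
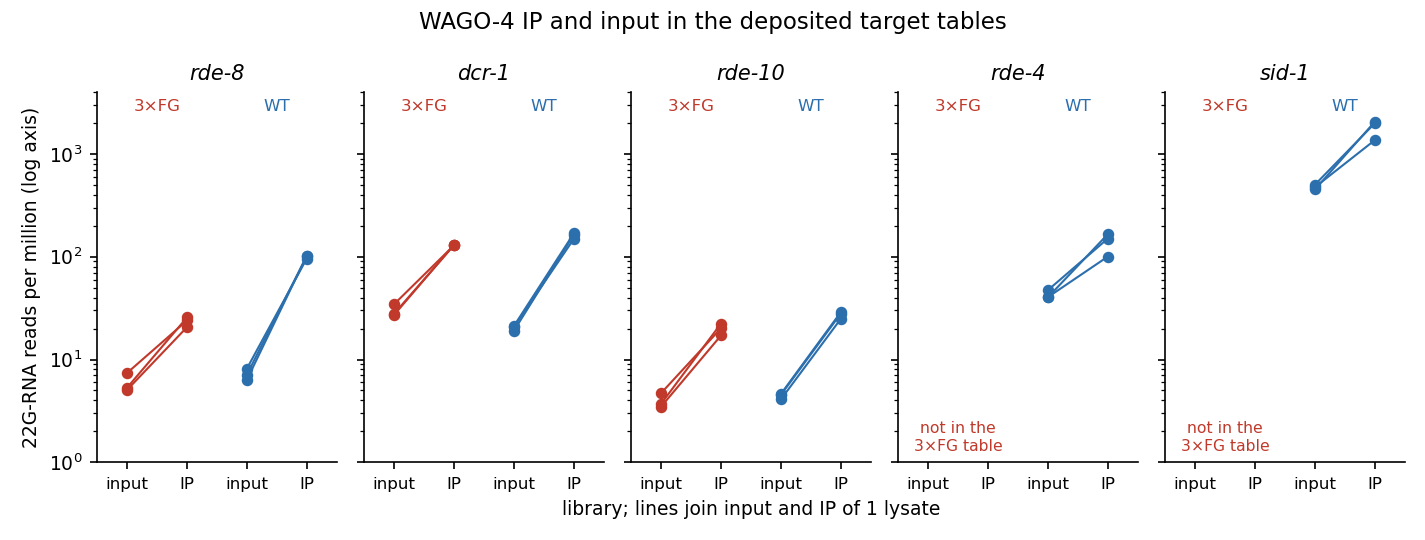
22G-RNA level in the input and in the WAGO-4 IP of each lysate, in RPM on a log axis, for the 5 genes in a target table (red 3×FG, blue WT). Lines join the input and the IP of 1 lysate. The *rde-8* lines rise to 20.7 to 25.7 RPM in 3×FG and to 96.0 to 102 RPM in WT from similar inputs, and *rde-4* and *sid-1* have no 3×FG values in the tables.

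*rde-4* and *sid-1* were targets in WT only. In the WT IPs *sid-1* had 2057, 1987 and 1361 RPM, above 99.6% of the WT table, over inputs of 451, 502 and 475 RPM. Its ratios of 4.56, 3.96 and 2.87 were above only 6.00% of the table, so *sid-1* was one of the most abundant and least enriched of the WT targets. *rde-4* had 166, 150 and 100.2 RPM in the WT IPs over inputs of 40.3, 47.3 and 40.4 RPM. Its ratios were 4.11, 3.17 and 2.48, above 3.51% of the table. For both genes pair 3 had the lowest WT ratio, above the limit of 2. In 3×FG at least 1 of 3 replicates of each gene missed the limits of 5 RPM or of a ratio of 2. Their 3×FG IP values were not analysed here, so neither the size of the change nor a test can be given. The median ratio of all listed features was 6.15, 6.02 and 4.32 in the 3×FG table and 10.2, 8.57 and 7.33 in the WT table.

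**Figure D4:**
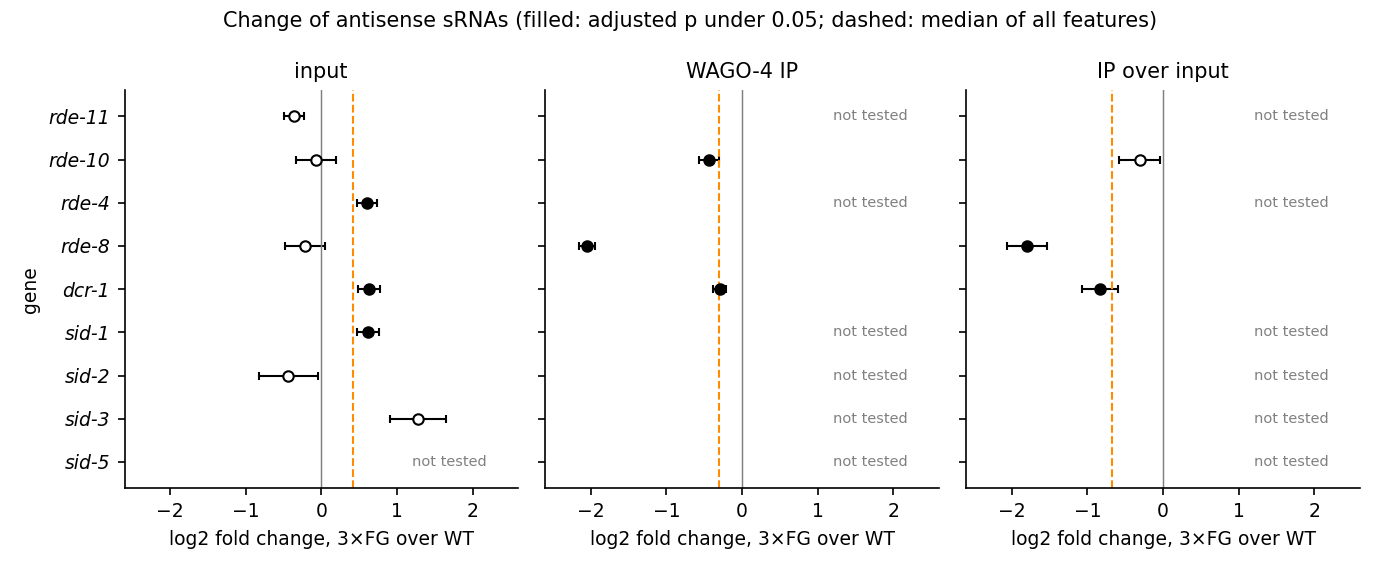
Log2 fold change (3×FG over WT) of antisense sRNAs of each gene in the inputs (edgeR), in the WAGO-4 IPs and in IP over input (limma, log2(RPM + 1)), with 1 SE. Filled points had an adjusted p under 0.05, and dashed lines mark the medians of all features tested, 0.42, -0.30 and -0.67. *rde-8* lies far below the median in the IP and in IP over input.

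Other genes of the RNAi pathways were taken from 4 lists with 38 genes, of which 36 were tested in the inputs. In all, 8 passed as higher, 1 passed as lower and 27 did not pass, and the median change of the 36 was 0.51 on the log2 scale. Among all antisense features of protein-coding genes, the class these rows belong to, the median was 0.37, 20.8% were called and 13.6% were called higher. Of 15 other exogenous RNAi factors tested, 2 passed as higher and 0 as lower. They were *mut-14*, an RNA helicase of Mutator foci, with 129 ± 27.0 RPM in 3×FG and 71.2 ± 3.55 RPM in WT (log2 fold change 0.93, edgeR adjusted p = 0.00815), and *mut-7*, an exonuclease-domain protein of the same foci, with 91.9 ± 20.3 RPM in 3×FG and 62.1 ± 2.92 RPM in WT (0.64, edgeR adjusted p = 0.0391, SD and n = 3 each). None of the 3 other systemic RNAi factors passed (*rsd-3*, *nck-1* and *chup-1*, edgeR adjusted p = 0.800 to 0.908). Of the 15, 12 were targets in 3×FG and 13 in WT, and none of the 3 systemic factors was a target in either genotype. Among features of any class, 4185 were targets in 3×FG and 4850 in WT, beside 19691 protein-coding genes with an antisense row. Whether any of the 4 lists holds more targets than other genes of similar antisense level was not tested.

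Of 10 nuclear RNAi and inheritance factors, 4 passed as higher and 0 as lower. The largest were *nrde-1*, a nuclear RNAi factor, with 130 ± 15.9 RPM in 3×FG and 42.4 ± 10.0 RPM in WT (log2 fold change 1.67, edgeR adjusted p = 0.00783), and *wago-4* itself, with 260 ± 59.7 RPM in 3×FG and 116 ± 8.16 RPM in WT (1.23, edgeR adjusted p = 0.00722, SD and n = 3 each). *nrde-1* was a target in WT only, like *sid-1* and *rde-4*, and of the 10 factors 8 were targets in 3×FG and 9 in WT. Of 8 tested factors of the endogenous RNAi pathway, which competes with exogenous RNAi, 2 passed as higher and 1 as lower. *eri-7*, part of a helicase, was at 15.2 ± 1.98 RPM in 3×FG and 7.69 ± 1.31 RPM in WT (1.10, edgeR adjusted p = 0.0401) and *eri-1*, an exonuclease that degrades siRNAs, at 21.4 ± 5.65 RPM in 3×FG and 13.2 ± 0.287 RPM in WT (0.76, edgeR adjusted p = 0.0456, SD and n = 3 each). *eri-9* was the 1 gene called lower, with 3.90 ± 0.860 RPM in 3×FG and 9.62 ± 1.86 RPM in WT (-1.21, SD, n = 3 each, edgeR adjusted p = 0.0325). In the WAGO-4 IPs *eri-9* changed by -2.14 (limma adjusted p = 5.1e-06), close to the -2.05 of *rde-8*. There *wago-4* and *mut-14* were higher (0.72 and 0.49, limma adjusted p = 0.00014 and 0.00074), and *mut-7* (-0.14) and *eri-1* (0.02) were not called. Of the endogenous factors 5 were targets in 3×FG and 7 in WT. *drh-3* was at 0 in every input and *drh-2* had no antisense row of a protein-coding gene, so neither was tested.

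**Figure D5:**
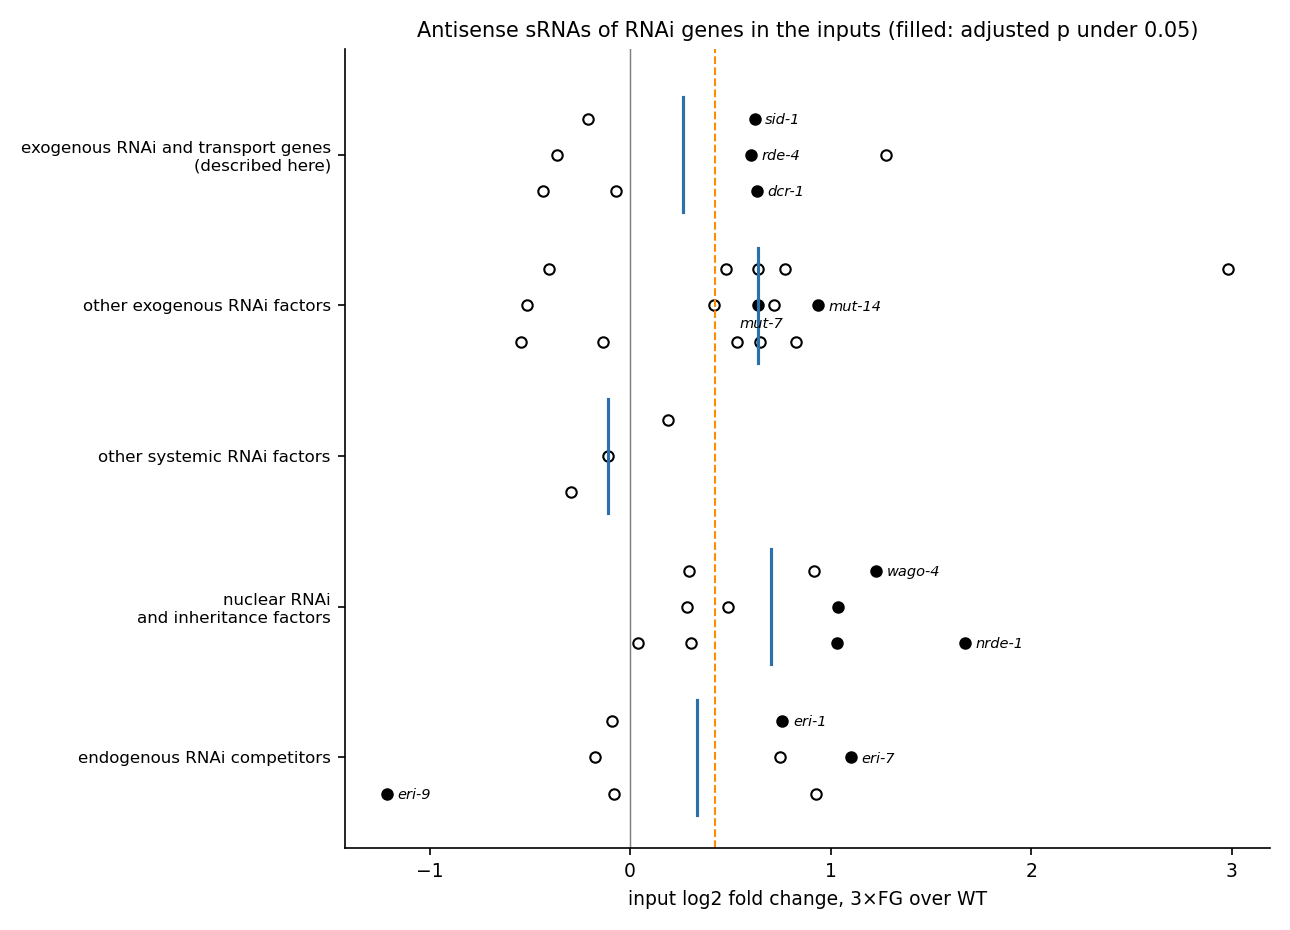
Input log2 fold change (3×FG over WT) of antisense sRNAs of the 8 tested genes and of the other RNAi genes in 4 lists, 1 point per gene with arbitrary vertical offsets. Filled points had an edgeR adjusted p under 0.05, blue lines are list medians and the dashed line is the median of all features, 0.42. Called genes described in the text are labelled, and *eri-9* at -1.21 is the only one called below 0.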

How the data were processed

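sRNAs of whole worms were sequenced from 6 inputs and 6 WAGO-4 IPs. The authors deposited raw counts of both strands for the inputs. They also deposited RPM values (22G-RNAs per 1000000 reads of the library, with 0.01 added) of the targets of each genotype, with the IP/input ratio made from them. The submitters' processing notes name cutadapt 1.15, STAR 2.6.0c and the builds ce11 and ce10. The counter and the annotation release are not given in the sources used here. Gene coordinates and exon lengths are from WBcel235 (Ensembl 115). The deposited tables had 0 columns of other series.

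Reads on no feature (4.58% to 6.14%) were left out of library sizes and RPM of the inputs. Input counts were tested with edgeR 4.0.16 (quasi-likelihood, TMM, filterByExpr with a minimum count of 10). IP levels, and IP over input as an interaction over 12 libraries, were tested with limma 3.58.1 (limma-trend) for the 4080 features listed in both genotypes, with a pseudocount of 1 RPM before the log2, which makes changes of low features look smaller. p-values were adjusted by Benjamini-Hochberg over all features tested. Features with an adjusted p under 0.05 were called. Replicates are as labelled, and p-values measure the spread between these libraries. In the inputs, 1 read was worth 0.0134 to 0.482 RPM. Intervals and floors (3 reads) cover counting error only. Of low input values in the tables, 72.7% to 86.2% were whole reads within 0.02 reads, so they were not turned into counts for testing. For the listed genes, input values were converted to reads, without rounding, to give their share of the antisense reads stated above.

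The 9 genes were all named. Of the other RNAi genes in each list, at most 2 called in each direction, those with the largest changes, were named. The genes and lists were chosen with earlier results of these data known. Y47G6A.21 and *dyf-2* were named because they overlap 2 of the genes. The library names in the labels tie each IP to the input of its lysate. Correlations of their deviations were 0.01 to 0.12, against -0.14 to 0.07 for unmatched IPs and inputs, so the pairing rests on the labels. The lysate block changed none of the calls of these genes. Alternatives covered scaling, filters, pseudocount, batch, replicate block, call rule and each library left out. The tests were checked on simulated data over 22756, 4080 and 4080 features. These data had a spread set in advance and no batch effect, and the changed features were drawn from those above a minimum level. There, 200 of 200 changed features were recovered in the inputs, in the IP and in IP over input. In these 3 comparisons 11, 8 and 6 unchanged features were called. The changed features had median log2 fold changes of 2.05 and -1.92, 1.99 and -1.99, and 2.04 and -2.08. Recovery at smaller sizes, such as the 0.60 to 0.63 of the genes called in the inputs, was not tested. Neither was recovery, or the number of false calls, with the spread and the batches of the real libraries. R 4.3.3, DESeq2 1.42.0 and Python 3.11.15 were used.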

Additional observations from a re-analysis of the deposited data

Results flagged for a closer look

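The IP over input difference of *rde-8* differed between the genotypes, by -1.80 on the log2(RPM + 1) scale in 3×FG relative to WT (limma interaction, adjusted p = 8.1e-06). The ratios of the 3 3×FG pairs were all below those of the 3 WT pairs, and with TMM scaling the difference was -0.98 (limma adjusted p = 0.00101). That of *dcr-1* also differed, by -0.83 (limma interaction, adjusted p = 0.00611), again with all 3 pairs of 3×FG below all 3 of WT. It includes the higher *dcr-1* inputs of 3×FG, and with TMM scaling it was -0.08 (limma adjusted p = 0.678). The ratios of 57.3% of the 4080 features in both tables were lower in 3×FG without overlap, and 50.7% were called lower. WT inputs 1 and 2 were of another sequencing batch than the IPs of the same lysates.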

How the results depend on the processing

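Of 189 values of the named genes under alternatives, 130 stayed on the same side of the threshold, 49 lost the call, 9 gained one and 1 called value reversed, *dcr-1* in the IP with TMM scaling (0.020, limma adjusted p = 0.820). Of the 130, *rde-10* in IP over input changed sign with TMM scaling (0.44, limma adjusted p = 0.129) and was called in neither setting. In the inputs 2911 features (1751 higher, 1160 lower) and 3 of these genes were called. DESeq2 size factors gave 2732 features (1178 higher, 1554 lower) and 1 gene (*rde-11*, lower), and library size alone 2305 (1148 higher, 1157 lower) and 1 gene. The fit of antisense features gave 4478 (2475 higher, 2003 lower) and 3 genes (*dcr-1*, *sid-3* and, lower, *rde-11*). No filter gave 2089 and 1 gene, and the DESeq2 test 4448 (1762 higher, 2686 lower) and 2 genes. Batch as a term gave 3233 and 1 gene, and the stricter rule 731 and 0 genes. Batch B alone leaves 1 WT input, on which batch as a term also rests. The median change ran from -0.32 to 0.42 over these settings. With each input left out in turn, 500 to 12406 features and 0 to 4 genes were called. The most were called without WT input 3, where genotype and batch cannot be told apart, and 0 genes without any one 3×FG input or WT input 2. The replicate block gave 1249 features and 0 of these genes (edgeR adjusted p = 0.0761 to 0.0937 for *rde-4*, *dcr-1* and *sid-1*), but the numbers do not pair the genotypes (correlations of -0.32, -0.03 and -0.26 in the inputs and -0.15, 0.31 and 0.20 in the IPs). In the IPs the block gave 2505 features and 3 genes, against 2573 and 3.

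In the IPs, TMM scaling called 1 of these genes (*rde-8*), the stricter rule 828 features and 1 gene, and leaving out a library 2158 to 2932 features and 1 to 3 genes, with 1 without WT IP 1 or 2 and 2 without 3×FG IP 2. In IP over input, 2092 features and 2 genes were called, TMM scaling gave 887 features and 1 gene, batch B alone 1215 and 2 genes, the stricter rule 993 and 1 gene, and leaving out a pair 1348 to 2455 and 2 genes. The cause of these shifts was not tested. Depth limits *sid-2*, *sid-3* and *sid-5* most, with 33, 45 and 4 reads over the 3 WT inputs.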
